A study of Arabidopsis thaliana with 8 samples.

Results

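BODENLOS (BDL, also IAA12, AT1G04550) and MONOPTEROS (MP, also ARF5, AT1G19850) are a repressor and the transcription factor it binds in the auxin response of the Arabidopsis thaliana embryo. Every reporter (array probe) whose gene model, without its suffix, carries 1 of these 2 gene codes was taken. This gave 3 reporters for BDL and 1 for MONOPTEROS, which are 4 of the 27462 reporters and 2 of the 24648 genes on the arrays. The BDL reporters At30000407 and At30000405 are listed with gene model At1g04550.2, and A200239_01 with At1g04550.1. The MONOPTEROS reporter At30002147 is listed with At1g19850.1. Each reporter had 1 spot per array.

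The arrays compared embryos of 2 crosses, 4 arrays for each of 2 ages, 3 and 6 days after pollination by the labels (the series text counts from fertilization). Each array held amplified RNA of Q0990 x bdl embryos in 1 dye and of Q0990 x Col-0 embryos in the other. Of each day's arrays, 2 carried the Q0990 x bdl sample in Cy5 and 2 in Cy3. The series text calls the 4 arrays of a day biological replicates. The seed parent Q0990 was shared by both crosses, so its enhancer trap insertion was present in both. The pollen parent was bdl or the wild type Col-0, and the labels give Col-0 as the ecotype of both samples. Q0990 is known as a GAL4 line that marks provascular cells, and bdl as a dominant allele of IAA12 whose protein resists auxin-dependent breakdown. Whether the bdl parent carried that allele at its own locus or as a transgene is not given in the sources used here, nor is the number of embryos in a sample. The files do not say whether a reporter can tell introduced from resident BDL RNA.

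Auxin brings Aux/IAA proteins such as BDL to receptors of the TIR1/AFB family, which leads to their destruction. Before that, BDL holds MONOPTEROS inactive by bringing corepressors of the TOPLESS family to it. MONOPTEROS is needed for the embryonic root and for vascular tissue, and it is known to activate its own gene and that of BDL.

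Median intensities per channel were 225 to 524. The level that blank spots reached, their 95th percentile in a channel, was 27.3 to 308. Log2 ratios of all genes correlated between arrays at r = 0.572 to 0.778 within day 3 and at r = 0.732 to 0.870 within day 6. Once the day means were removed, arrays 1 and 3 and arrays 2 and 4 of a day resembled each other more (r = -0.16 to 0.22) than other pairs of the same day (r = -0.59 to -0.42). This split does not follow the labelled dyes, and member values are given on both sides of it below. Of the embryo markers, LEC1, ATML1 and PDF1 exceeded the blank spots in every signal. DRN did so on all day 3 arrays but on 1 of 4 day 6 arrays in either cross, and WOX2 was not kept. On day 3, 3 of these 4 markers were lower in Q0990 x bdl (PDF1 at a log2 ratio of -0.84, DRN at -0.69 and LEC1 at -0.27) and none was higher, where 21% of all genes were called lower. Their summed normalised linear signal was then 42313 to 48209 in Q0990 x bdl and 66702 to 74629 in Q0990 x Col-0, without overlap. On day 6 none was lower and 1, PDF1, was higher (0.30), with sums of 41796 to 49084 and 35869 to 43831.

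RNA of other seed tissues was also measured. Summed over 9 endosperm markers, the normalised linear signal on day 3 was 22279 to 30105 in Q0990 x bdl and 15251 to 21545 in Q0990 x Col-0, ranges that do not overlap. On day 6 it was 2643 to 7403 and 2490 to 6646. Over 9 seed coat markers it was 25902 to 50964 and 19734 to 31073 on day 3, and 4841 to 5585 and 5041 to 5888 on day 6. No marker had a signal of 0, but FIS2, AGL36 and TT16 exceeded the blank spots on no day 6 array of either cross, and MINI3 had no day 6 ratio. On day 3, 9 of 10 endosperm markers and 4 of 9 seed coat markers were higher in Q0990 x bdl and none was lower, where 21.1% of all genes were called higher. On day 6, where 16.3% were, 3 of 9 and 0 of 9 were higher, and 1 seed coat marker, TTG2, was lower. Those 3 endosperm markers were PHE1, ZOU and SUC5. Of 4 day 6 arrays, Q0990 x bdl first, PHE1 exceeded the blank spots on 4 and 2, ZOU on 3 and 1, and SUC5 on 4 and 4. The day 6 endosperm count was 1 without any 1 of the day 6 arrays. The embryo, endosperm and seed coat differences run along with the day 3 ratios and with the changes between days given below, and their part in those results was not tested. In such bulk samples, fewer cells of a type and less RNA per cell cannot be told apart.

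The BDL reporter At30000407 read brighter in Q0990 x bdl on all 8 arrays. On day 3 its intensities in Q0990 x bdl and Q0990 x Col-0 were 3588 and 1400 on array 1, 8492 and 3330 on array 2, 6965 and 2662 on array 3, and 9600 and 3712 on array 4. On day 6 they were 31041 and 10616, 5956 and 2236, 8238 and 2935, and 11648 and 4476, in the same order of arrays. The pair of values shifted from array to array, and the distance between them on the log scale hardly did. After normalisation, the log2 ratio of the Q0990 x bdl signal to that of Q0990 x Col-0 was 1.34 ± 0.0237 (SD, n = 4) on day 3 and 1.44 ± 0.0601 (SD, n = 4) on day 6. These are 2.53-fold (limma adjusted p = 3.41e-06) and 2.70-fold (adjusted p = 1.49e-06).

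The reporter At30000405 was also brighter in Q0990 x bdl on all 8 arrays. Its day 3 intensities were 1694 and 994, 6852 and 2834, 4543 and 2225, and 7194 and 2766 on arrays 1 to 4, Q0990 x bdl first. On day 6 they were 10104 and 4272, 5009 and 2626, 3918 and 1670, and 7622 and 3902. The day 3 ratios of this reporter were the more scattered ones, with array 1 the lowest. The log2 ratio was 1.09 ± 0.273 (SD, n = 4) on day 3 and 1.07 ± 0.141 (SD, n = 4) on day 6, which are 2.12-fold (adjusted p = 1.05e-04) and 2.09-fold (adjusted p = 1.40e-04).

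The reporter A200239_01 stood near the blank spots. It exceeded them in 12 of 16 signals, against 16 of 16 for each of the other 3 reporters. On day 3 its intensities were 85.2 and 71.3, 104 and 86.6, 157 and 138, and 178 and 154 on arrays 1 to 4, Q0990 x bdl first. On day 6 they were 474 and 270, 192 and 127, 228 and 142, and 343 and 207. It exceeded the blank spots on 3 of 4 arrays in both crosses on day 3, and on day 6 on 4 of 4 in Q0990 x bdl and 2 of 4 in Q0990 x Col-0. Its log2 ratio was 0.16 ± 0.0157 (SD, n = 4, adjusted p = 0.0399) on day 3 and 0.57 ± 0.108 (SD, n = 4, adjusted p = 1.44e-04) on day 6. The Q0990 x bdl signal was the higher one on all 8 arrays. The day 3 call was lost when any 1 of the day 3 arrays, or array 3 or 4 of day 6, was left out (adjusted p = 0.0602 to 0.110).

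**Figure D1:**
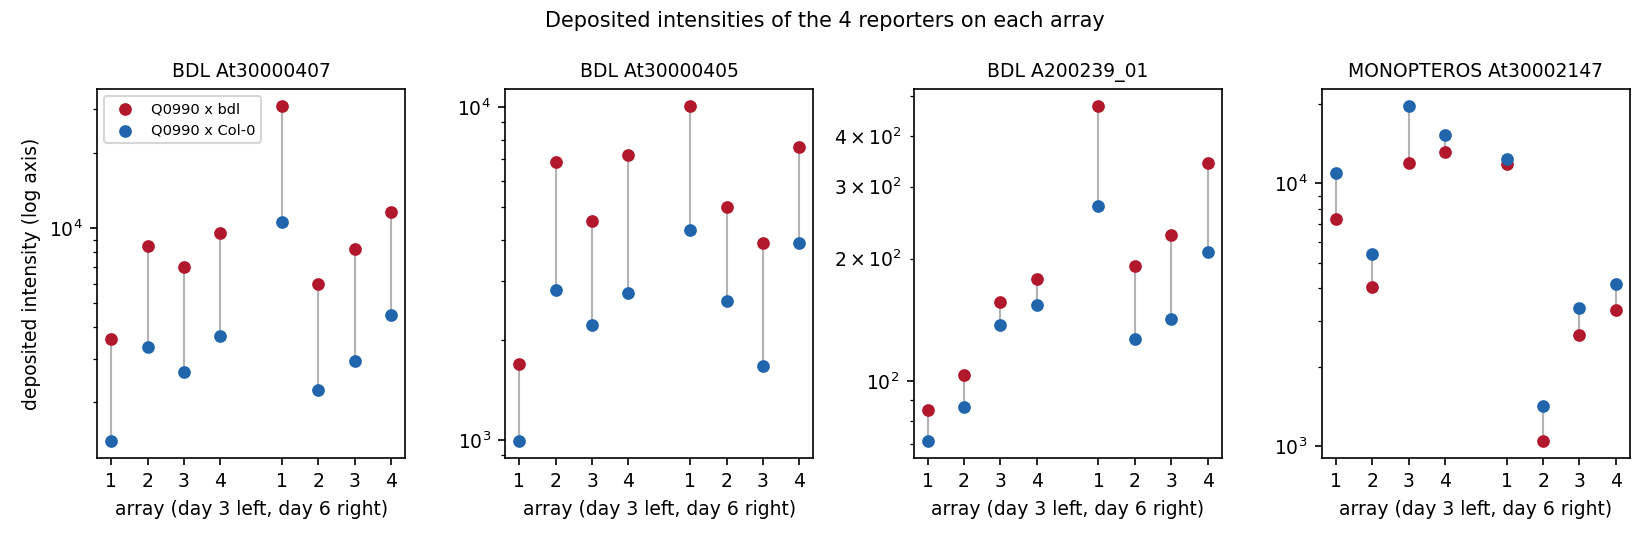
Deposited intensity (log axis) of the 3 BDL reporters and the MONOPTEROS reporter on arrays 1 to 4 of day 3 and of day 6, red for Q0990 x bdl and blue for Q0990 x Col-0, with a line joining both samples of an array. The red point lies above the blue one on all 8 arrays for each BDL reporter and below it on all 8 for MONOPTEROS.

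The 4 reporters were all called on both days, where 41.2% of all reporters were called on day 3 and 35.4% on day 6. The BDL reporters ranked 43 (At30000407), 99 (At30000405) and 5541 (A200239_01) from the highest ratio among 21200 reporters on day 3. On day 6 they ranked 10, 31 and 255 of 21662.

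The 3 BDL reporters did not give 1 ratio. Within arrays, the ratio of A200239_01 was lower than that of At30000407 by a mean log2 difference of -1.02 ± 0.178 (SD, n = 8 arrays, lower on 8 of 8). It was lower than that of At30000405 by -0.71 ± 0.298 (SD, n = 8 arrays, lower on 8 of 8). Each gave p = 0.0078125 in an exact two-sided sign-flip permutation test, the smallest p that 8 arrays allow, or 0.0117 adjusted over the 3 pairs. The ratio of At30000405 was below that of At30000407 by -0.31 ± 0.198 (SD, n = 8 arrays, lower on 7 of 8, exact permutation p = 0.0156, adjusted p = 0.0156). The gap between A200239_01 and At30000407 was -1.18 ± 0.0366 (SD, n = 4) on day 3 and -0.87 ± 0.0806 (SD, n = 4) on day 6. Near the blank spots the offset of 50 added to each intensity shrinks a ratio. Without it the day 3 ratio of A200239_01 was 0.23, and all 3 differences between reporters were still past the threshold. Leaving out the offset does not remove any background within the deposited intensities. The tests with A200239_01 therefore compare measured ratios, and cannot show that the reporters would differ in ratio at a higher signal. The part of the low signal in these gaps was not tested.

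**Figure D2:**
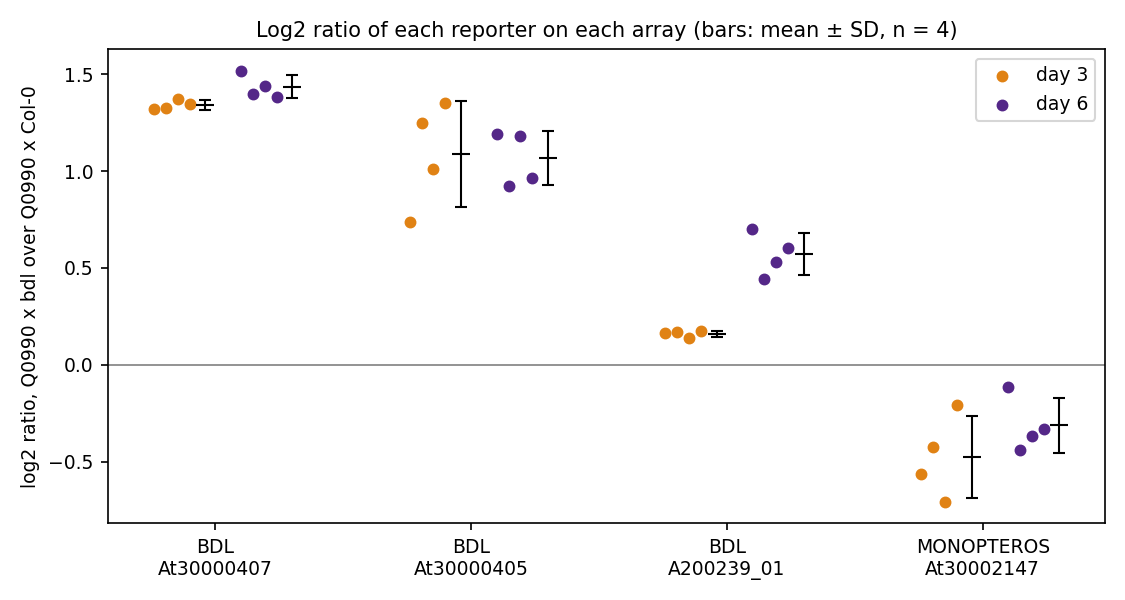
Log2 ratio of Q0990 x bdl to Q0990 x Col-0 for each reporter on each array, orange for day 3 and purple for day 6, with mean and SD of 4 arrays in black. The BDL reporters lie at 3 heights above 0, A200239_01 is higher on day 6 than on day 3, and all 8 MONOPTEROS points lie below 0.

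A200239_01 was the one member reporter whose ratio passed the test of the difference between days. Its day 6 ratio exceeded that of day 3 by 0.41 (SE 0.0745, adjusted p = 0.00318), and its day 6 values of 0.44 to 0.70 do not overlap the day 3 values of 0.14 to 0.17. As given above, this reporter exceeded the blank spots on only 3 of 4 day 3 arrays in each cross and on 2 of 4 day 6 arrays in Q0990 x Col-0, so the size of the difference rests in part on signals at that level. The background was 41% of reporters called in this contrast. The change was 0.094 for At30000407 (adjusted p = 0.278, 95% interval -0.0538 to 0.241), -0.021 for At30000405 (adjusted p = 0.921, 95% interval -0.340 to 0.298) and 0.16 for At30002147 (adjusted p = 0.324).

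Averaged over its reporters, the BDL gene gave log2 ratios of 0.74, 0.91, 0.84 and 0.96 on day 3 arrays 1 to 4 and of 1.14, 0.92, 1.05 and 0.98 on day 6 arrays 1 to 4. Among the genes of the same array these values lay at the 97.4th to 98.8th percentile on day 3 and at the 99.8th to 99.9th on day 6. The fitted ratio was 1.82-fold on day 3 (adjusted p = 2.70e-05), rank 229 from the highest of 19087 genes, and 2.03-fold on day 6 (adjusted p = 1.37e-05), rank 25 of 19467. Over all genes, 42.1% were called on day 3 and 35.8% on day 6. The array pairs gave 0.79 (arrays 1 and 3) and 0.94 (arrays 2 and 4) on day 3, and the same pairs of day 6 gave 1.09 and 0.95. The higher rank of day 6 came with a narrower upper tail, in which the 95th percentile of all gene ratios was 0.35 against 0.52 on day 3. The ratio itself differed between the days by 0.16 (adjusted p = 0.140, 95% interval -0.0213 to 0.342), in a contrast that called 41.4% of genes. With a term that set arrays 1 and 3 of day 3 and arrays 2 and 4 of day 6 against the others, added after seeing the data, that difference passed (adjusted p = 0.0265). The brightest reporter alone, At30000407, gave 0.094 (adjusted p = 0.275). The averages, folds and ranks of BDL given here include the dim A200239_01, which had the lowest ratio of the BDL reporters on every array. A stricter filter, which dropped A200239_01, gave log2 ratios for BDL of 1.21 on day 3 and 1.25 on day 6. Between the days these differed by 0.036 (limma adjusted p = 0.742).

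MONOPTEROS, the response factor that BDL binds, was lower in Q0990 x bdl on all 8 arrays. On day 3 its intensities were 7313 and 10988, 4044 and 5408, 11988 and 19754, and 13182 and 15286 on arrays 1 to 4, Q0990 x bdl first. On day 6 they were 11825 and 12435, 1048 and 1424, 2649 and 3371, and 3289 and 4155. Although both samples of a day overlapped widely between arrays, within each array the Q0990 x bdl spot was the dimmer one. The log2 ratios of arrays 1 to 4 were -0.57, -0.42, -0.71 and -0.21 on day 3, and those of day 6 were -0.11, -0.44, -0.37 and -0.33.

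The fitted MONOPTEROS ratio was -0.48 ± 0.212 (SD, n = 4, 1.39-fold lower, adjusted p = 0.00299) on day 3 and -0.31 ± 0.141 (SD, n = 4, 1.24-fold lower, adjusted p = 0.0237) on day 6. The day 3 ratio lay just below the 5th percentile of all gene ratios (-0.47), and the day 6 ratio lay above that of its day (-0.54). Among the genes of the same array MONOPTEROS lay between the 2.44th and the 25.1th percentile on day 3 and between the 7.57th and the 36.1th on day 6. The day 6 call was lost without day 6 array 2 (-0.26, adjusted p = 0.105), array 3 (-0.30, adjusted p = 0.0960) or array 4 (-0.31, adjusted p = 0.0835). Arrays 1 and 3 of day 3 gave -0.64 and arrays 2 and 4 gave -0.32, while on day 6 the same pairs gave -0.24 and -0.39. Arrays with Q0990 x bdl in Cy5 and in Cy3 gave -0.50 and -0.46 on day 3, and -0.28 and -0.35 on day 6. Its ratio differed between days by 0.16 (adjusted p = 0.321, 95% interval -0.119 to 0.445).

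**Figure D3:**
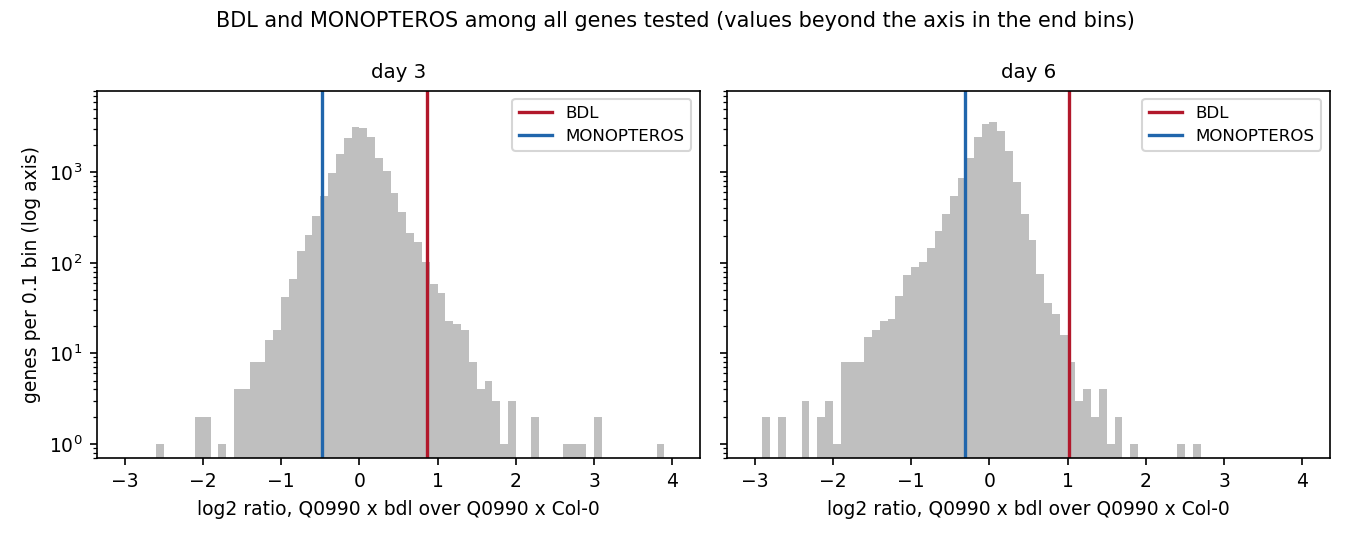
Number of genes (log axis) per 0.1-wide bin of the log2 ratio of Q0990 x bdl to Q0990 x Col-0, day 3 left and day 6 right, with the fitted ratios of BDL in red and MONOPTEROS in blue. BDL lies at 0.86 and 1.02, in the upper tail, and MONOPTEROS at -0.48, at the edge of the lowest 5% of genes, and at -0.31, on the lower side.

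The changes of repressor and response factor went opposite ways on every array. The BDL ratio exceeded the MONOPTEROS ratio by 1.34 ± 0.113 (log2, SD, n = 8 arrays, 1.17 to 1.55, higher on 8 of 8). The exact two-sided sign-flip permutation test gave p = 0.0078125, the smallest p possible with 8 arrays. With BDL higher and MONOPTEROS lower on all 8 arrays, this p was fixed by those signs and is no further result. This gap was 1.34 ± 0.158 (SD, n = 4) on day 3 and 1.34 ± 0.0713 (SD, n = 4) on day 6, or 2.53-fold on either day. The MONOPTEROS ratio varied more between the day 3 arrays than the gap did. Both genes were read from the same arrays and against the same Q0990 x Col-0 samples. This compares their changes and says nothing of which transcript was more abundant.

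Levels across the 4 conditions were read as normalised log2 signals of each channel. No array held both ages, so differences between days run between arrays. The arrays of each day also differed as sets, with 30274 spots on day 3 and 30277 on day 6. Values were given for 22325 spots on each day 3 array and for 26041 to 26042 on day 6. Age and set of arrays therefore cannot be told apart in the changes between days. BDL was lowest in Q0990 x Col-0 on day 3 (9.83 ± 0.418, SD, n = 4), followed by Q0990 x Col-0 on day 6 (10.55 ± 0.195), Q0990 x bdl on day 3 (10.70 ± 0.508) and Q0990 x bdl on day 6 (11.57 ± 0.160). The 2 middle conditions overlapped, with ranges of 10.34 to 10.79 and 10.05 to 11.16. The day 6 values of Q0990 x bdl, 11.39 to 11.78, lay above every other value of the gene.

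MONOPTEROS had the opposite order of days. It was highest in Q0990 x Col-0 on day 3 (13.37 ± 0.627, SD, n = 4), then in Q0990 x bdl on day 3 (12.89 ± 0.601), Q0990 x Col-0 on day 6 (12.09 ± 0.717) and Q0990 x bdl on day 6 (11.77 ± 0.845). Neighbouring conditions overlapped throughout, with ranges of 12.44 to 13.83, 12.02 to 13.39, 11.12 to 12.86 and 10.68 to 12.75 in the same order. The lower level of Q0990 x bdl within a day rests on the paired spots of each array. Day 3 array 2 read low in both crosses (12.02 and 12.44), as did day 6 array 2 (10.68 and 11.12).

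**Figure D4:**
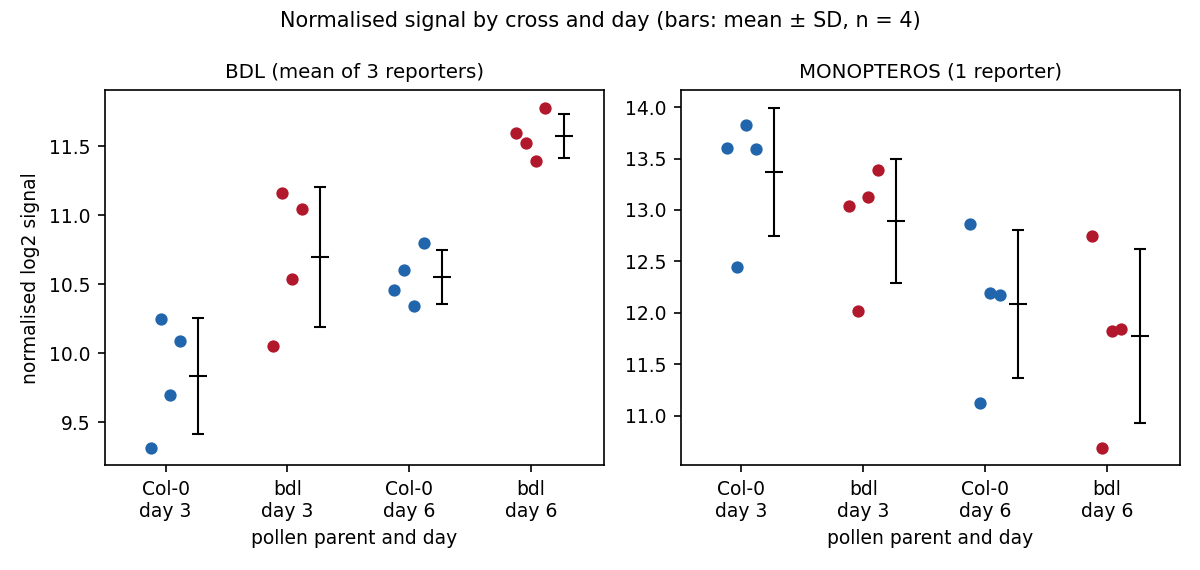
Normalised log2 signal of BDL (left, mean of 3 reporters) and MONOPTEROS (right, 1 reporter) in each cross and day, blue for Q0990 x Col-0 and red for Q0990 x bdl, 1 point per array with mean and SD of 4 arrays in black. BDL is highest in Q0990 x bdl on day 6 and MONOPTEROS in Q0990 x Col-0 on day 3. Heights are not comparable between the panels.

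Between day 3 and day 6, BDL rose by 0.88 in Q0990 x bdl (1.83-fold, adjusted p = 0.0161, 95% interval 0.329 to 1.42). In Q0990 x Col-0 its change was 0.71 (1.64-fold, adjusted p = 0.0509, 95% interval 0.168 to 1.26). MONOPTEROS fell by 1.28 in Q0990 x Col-0 (2.43-fold, adjusted p = 0.0345, 95% interval -2.18 to -0.385), and its change in Q0990 x bdl was -1.12 (2.17-fold, adjusted p = 0.0545, 95% interval -2.02 to -0.222). Over all genes, 26.6% were called between days in Q0990 x Col-0 and 31.8% in Q0990 x bdl. Several of these calls turned on 1 array. The BDL call in Q0990 x bdl was lost without day 3 array 1 (0.66, adjusted p = 0.0685), day 3 array 3 (0.82, adjusted p = 0.0712) or day 6 array 4 (0.82, adjusted p = 0.0592). The MONOPTEROS call in Q0990 x Col-0 held only without day 3 array 2 or day 6 array 1 among the 8 arrays left out in turn, and was lost with the others (-1.32 to -0.97, adjusted p = 0.0679 to 0.111). Conversely, BDL in Q0990 x Col-0 passed without day 3 array 2 (0.84, adjusted p = 0.0358), and MONOPTEROS in Q0990 x bdl without day 3 array 2 (-1.39, adjusted p = 0.0276) or day 6 array 1 (-1.46, adjusted p = 0.0143). The summed endosperm and seed coat signals given above were lower on day 6 than on day 3 in both crosses, without overlap.

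Among the single BDL reporters, At30000407 rose between days in both crosses, by 0.92 in Q0990 x Col-0 (adjusted p = 0.0169) and by 1.01 in Q0990 x bdl (adjusted p = 0.00760). A200239_01 rose by 0.89 in Q0990 x bdl (adjusted p = 0.00776), while its change in Q0990 x Col-0 was 0.48 (adjusted p = 0.142). At30000405 gave 0.72 (adjusted p = 0.213) and 0.70 (adjusted p = 0.215), with the widest intervals of the 3 (-0.146 to 1.58 in Q0990 x Col-0). The background was 25.8% of reporters in Q0990 x Col-0 and 30.9% in Q0990 x bdl. Over the 16 signals, the levels of BDL and MONOPTEROS correlated at r = -0.64, a description of signals that share 8 arrays, 2 crosses and 2 days.

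The other genes of the pathway are given by their role. The receptors bind auxin together with Aux/IAA proteins. Of 6 measured, 2 fell and none rose on day 3 (median -0.12, against 0.0025 for all genes), and 1 fell and 2 rose on day 6 (median 0.090, against -0.0021). The 2 and 3 of 6 receptors called compare with 42.1% of all genes on day 3 (21% lower, 21.1% higher) and 35.8% on day 6 (19.4% lower, 16.3% higher). TIR1 was 1.22-fold lower on day 3 (-0.28 ± 0.113 SD, adjusted p = 0.00728) and 1.18-fold higher on day 6 (0.24 ± 0.128 SD, adjusted p = 0.0165). Its day 6 call was lost without day 6 array 1 (adjusted p = 0.0832) or array 3 (adjusted p = 0.0695). AFB2 was 1.32-fold lower on day 3 (-0.40 ± 0.142 SD, adjusted p = 0.00244), and its day 6 value was 0.14 (adjusted p = 0.148). AFB3 was 1.15-fold higher on day 6 (0.20 ± 0.00485 SD, adjusted p = 0.0161), lost without day 6 array 3 (adjusted p = 0.0761) or 4 (adjusted p = 0.0709).

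The corepressors join BDL to histone deacetylation. Of 6 measured, 3 rose and none fell on day 3 (median 0.16), and 1 rose and 1 fell on day 6 (median 0.083). The share of all genes called was again 42.1% and 35.8%. TPL, the TOPLESS gene itself, gave -0.11 (adjusted p = 0.202) and 0.14 (adjusted p = 0.133). Its relatives TPR1 and TPR3 were 1.28-fold (0.36 ± 0.133 SD, adjusted p = 0.00501) and 1.20-fold higher (0.26 ± 0.0624 SD, adjusted p = 0.00272) on day 3. On day 6, TPR2 was 1.28-fold higher (0.35 ± 0.151 SD, adjusted p = 0.00358). The histone deacetylase gene HDA19 was 1.37-fold lower on day 6 (-0.45 ± 0.217 SD, adjusted p = 0.0132), lost without day 6 array 2 (adjusted p = 0.0655) or 4 (adjusted p = 0.0710).

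Neither of the 2 measured Aux/IAA genes most like BDL, IAA13 and IAA11, was called higher. Of all genes, 21.1% were called higher on day 3 and 16.3% on day 6. IAA13, its nearest relative, gave -0.027 on day 3 (adjusted p = 0.782) and was 1.20-fold lower on day 6 (-0.26 ± 0.112 SD, adjusted p = 0.0183). That call was lost without day 6 array 1 (-0.20, adjusted p = 0.0917), array 3 (adjusted p = 0.0565) or array 4 (adjusted p = 0.0525). IAA11 gave -0.018 and -0.12 (adjusted p = 0.775 and 0.0636), near the blank spots. On day 3 it exceeded them on 2 of 4 arrays in Q0990 x bdl and 3 of 4 in Q0990 x Col-0. On day 6 it did so on 2 of 4 and 1 of 4, so its values show little of a rise or a fall. IAA10 was not kept.

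Of the 4 activating response factors besides MONOPTEROS, 2 fell and none rose on each day (medians -0.35 and -0.17), where 21% and 19.4% of all genes were called lower. ARF6 was 1.57-fold lower on day 3 (-0.65 ± 0.139 SD, adjusted p = 2.33e-04) and 1.20-fold lower on day 6 (-0.26 ± 0.146 SD, adjusted p = 0.0217). Its day 6 call was lost without day 6 array 1 (adjusted p = 0.0549), array 2 (adjusted p = 0.0964) or array 4 (adjusted p = 0.108). ARF19 was 1.27-fold lower on day 3 (-0.34 ± 0.114 SD, adjusted p = 0.00858; -0.52 without the offset), and ARF8 1.54-fold lower on day 6 (-0.62 ± 0.296 SD, adjusted p = 0.00759). NPH4, the ARF7 gene, gave 0.083 (adjusted p = 0.289) and -0.088 (adjusted p = 0.275). SYD, a chromatin remodeller that MONOPTEROS recruits, gave 0.16 on day 3 (1.11-fold, adjusted p = 0.0204) and 0.18 on day 6 (1.13-fold, adjusted p = 0.0148). Its brightest reporter alone gave 0.098 (adjusted p = 0.175) and, on day 6, -0.034 (adjusted p = 0.652). The calls were also lost without day 3 array 1, 2 or 4 (adjusted p = 0.0667 to 0.0759) and without day 6 array 3 or 4 (adjusted p = 0.0798 and 0.0550). BRM, its relative, had no reporter among those analysed here.

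Genes known as targets of MONOPTEROS were mostly lower on day 3. Of 17 measured, 13 fell and none rose (median -0.69, where 21% of all genes were called lower), on arrays where 9 of 10 endosperm markers rose and 3 of 4 embryo markers fell. DRN is on both lists. On day 6, 7 fell and 3 rose (median -0.067, where 19.4% of genes were called lower and 16.3% higher). The test of the difference between days found the ratio higher on day 6 for 9 of them and lower for 2, and higher for 3 of 4 embryo markers (all genes 19.5% higher and 21.8% lower). Some targets stood near the blank spots on day 6. Of 4 arrays, Q0990 x bdl first, DRN exceeded them on 1 and 1, NTT on 1 and 0, DRNL on 3 and 2, and ATHB8 on 3 and 3. DRNL was among the targets that rose on day 6, and ATHB8 among those that fell. DRN and DRNL were both among those with a higher ratio on day 6 than on day 3. The part of low signal, of the other tissues and of the embryo markers in the counts of targets was not tested. LFY, IQD15, WIP4 and WIP5 were not kept. Since some of these targets were chosen in earlier studies for falling when MONOPTEROS is lost, the list is not independent evidence of a direction.

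TMO7, a small bHLH gene activated by MONOPTEROS, was lower on day 3 (-2.05 ± 0.312 SD), with its Q0990 x bdl signal above the blank spots on 1 of 4 arrays. Without the offset its day 3 ratio was -3.60. Neither a fold nor a p is given, since its Q0990 x bdl signal mostly did not exceed the blank spots. On day 6 that signal exceeded them on none of 4, against 4 of 4 in Q0990 x Col-0. TMO7 was then at least 2.57-fold lower, with measured mean log2 signals of 6.65 and 8.60. No p is given for this bound, since the fit used Q0990 x bdl signals that did not exceed the blank spots. TMO7 was kept mainly through its Q0990 x Col-0 signals. SOK1, a gene of cell polarity, was lower on day 3 (-2.01 ± 0.263 SD, adjusted p = 1.16e-05). In Q0990 x bdl, 2 of 4 arrays then read it above the blank spots. Without the offset its day 3 ratio was -2.98, still past the threshold, and no fold is given. On day 6 SOK1 was lower too (-0.89, adjusted p = 3.57e-04), with 3 of 4 arrays above the blank spots in Q0990 x bdl. AHP6, an inhibitor of cytokinin signalling, was 1.71-fold lower on day 3 (-0.78 ± 0.0205 SD, adjusted p = 2.00e-05). On day 6 it was 3.66-fold lower (-1.87 ± 0.106 SD, adjusted p = 5.60e-07). TMO5, a bHLH gene of vascular initiation that MONOPTEROS activates, gave -0.077 (adjusted p = 0.280) and 0.15 (adjusted p = 0.0586).

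**Figure D5:**
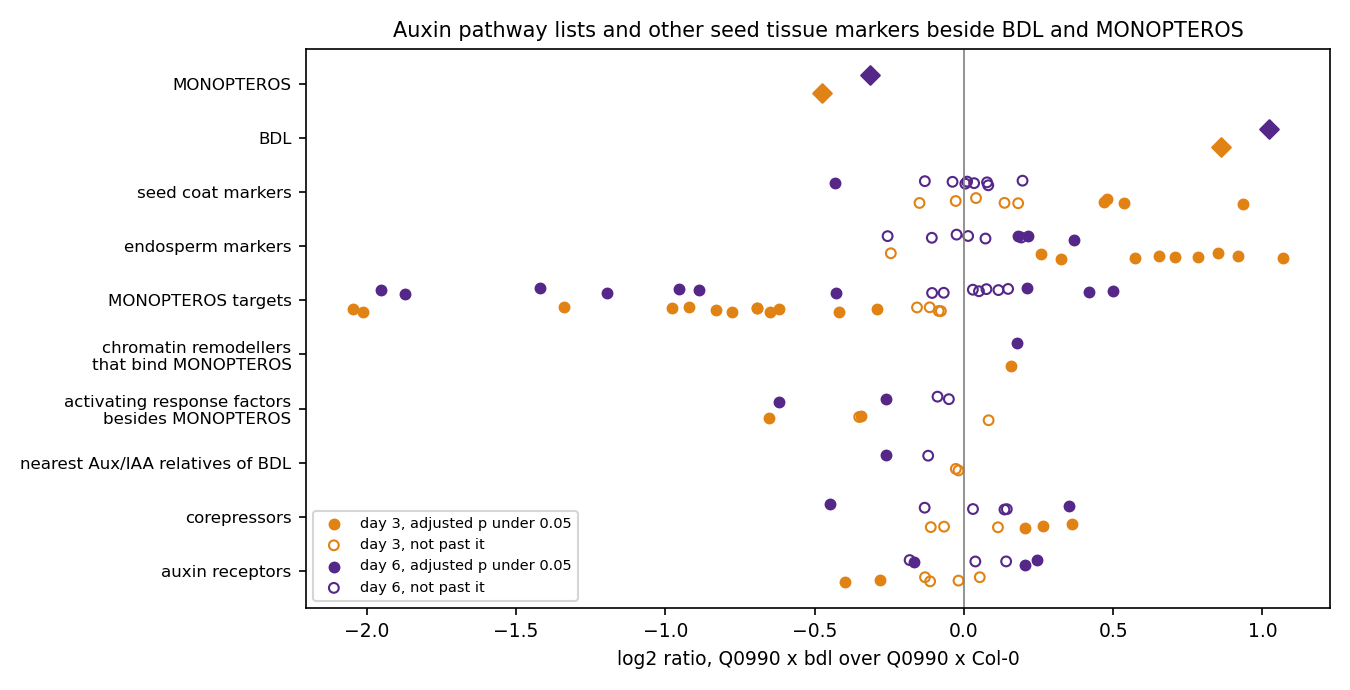
Fitted log2 ratio of Q0990 x bdl to Q0990 x Col-0 for each listed gene, 1 point per gene and day, orange for day 3 and purple for day 6, filled where the adjusted p was under 0.05, with BDL and MONOPTEROS as diamonds. The MONOPTEROS targets reach to -2.05 while the receptors and corepressors stay between -0.45 and 0.36, and the day 3 endosperm markers lie mostly to the right of 0. TMO7 is filled on both days, with its low Q0990 x bdl signal as given in the text.

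Genes whose signals ran most like those of each member were read over the 16 signals, among 14507 genes. For BDL they were AT5G21940 (r = 0.948), RCA, the Rubisco activase gene (r = 0.922), PDS3, a carotenoid synthesis gene (r = 0.894), MIOX2, an inositol oxygenase gene (r = 0.885), and AT5G28300 (r = 0.874). For MONOPTEROS they were AT5G13400 (r = 0.971), AT4G29030 (r = 0.966), CYP707A1, an abscisic acid hydroxylase gene (r = 0.958), TAF8 (r = 0.954) and DGS1 (r = 0.954). These r values describe signals that share arrays, and the cross and the day both enter them. Genes picked in this way tend to share the cross ratio of the member, so their ratios are no separate result. All 5 genes nearest to BDL had higher ratios in Q0990 x bdl on both days (0.25 to 0.87 and 0.45 to 1.24). Of all genes, 21.1% were called higher on day 3 and 16.3% on day 6. Of the 5 nearest to MONOPTEROS, AT5G13400 and AT4G29030 came closest to its ratios, at -0.56 and -0.55 on day 3 and -0.37 and -0.34 on day 6.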

How the data were processed

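Both genes, their reporters and all gene lists were chosen with earlier results of these data known. For each of 8 arrays the authors deposited a single intensity for every spot in each channel, with no background column. Intensities reached 86085, more than a 16-bit scanner image holds, so some scaling came before deposit. The series text mentions Agilent Feature Extraction files, which are not used here. The background method and normalisation are not given in the sources used here. The deposited series table holds log2 ratios, and all 32 member values in it equalled the plain log2 ratio of the deposited intensities within 1e-05. Ratios run from Q0990 x bdl (numerator) to Q0990 x Col-0. Per the labels' protocols, RNA was amplified before Cy3 or Cy5 was coupled to it.

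Intensities were raised by an offset of 50, and log2 ratios were normalised by loess within arrays (span 0.3, 4 iterations, control spots at weight 0). A reporter was kept when it exceeded the 95th percentile of 1743 blank spots in at least 4 of 16 signals, which kept 22002 reporters of 19720 genes and all 4 members. The reporters of a gene were averaged. limma 3.58.1 in R 4.3.3 fitted all 8 arrays with a term for each day and 1 for the labelled dye (lmFit, eBayes, at least 3 arrays per day). Benjamini-Hochberg adjustment ran over all genes or reporters, with a threshold of 0.05. Levels and changes between days came from the separate-channel fit (lmscFit, Aquantile, statmod 1.5.0, intraspot correlation 0.946). Reporters within a gene, and BDL against MONOPTEROS, were compared by exact sign-flip tests over 8 arrays. A fold of "at least" sets the bright mean against the dim signal, or the lowest signal that exceeded the blank spots where that was higher.

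The number of arrays limits the precision. Symbols follow the TAIR10.1 gene table, which holds all 66 listed genes (older synonyms are kept where usual). No genome build is named in the files, so no coordinates are given. Text names both members with every reporter; of each list the 2 with the largest ratio past the threshold on a day, and IAA13, TIR1, TPL, TMO5, TMO7 and NPH4; and the 5 genes of highest r to each member among genes above the blank spots in at least 12 of 16 signals. Same-numbered arrays of both days did not deviate together (r = -0.26 to -0.15), so numbers were not used as pairs. The fits were tested on simulated data. Alternatives were no offset, no loess, other filters, no dye term, each day alone, each array left out, the brightest reporter, other scaling between arrays, a replicate block, and a term for arrays 1 and 3 against 2 and 4, with opposite signs on the days.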

Additional observations from a re-analysis of the deposited data

Results flagged for a closer look

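The ratio of A200239_01, the dim BDL reporter, differed between the days by 0.41 (limma adjusted p = 0.00318), as given above, and was higher on day 6 in each alternative run (0.36 to 0.46, adjusted p = 9.04e-04 to 0.0139).

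Among the named genes, the test of the difference between days (day 6 minus day 3) also passed for AFB2 (0.54, adjusted p = 0.00317), TIR1 (0.53, adjusted p = 0.00204), AFB3 (0.33, adjusted p = 0.00714), ARF6 (0.39, adjusted p = 0.0151), SOK1 (1.12, adjusted p = 5.05e-04, and 1.84 without the offset) and AHP6 (-1.10, adjusted p = 2.07e-05). TPR3 (-0.23, adjusted p = 0.0232), TMO5 (0.23, adjusted p = 0.0406), AT4G29030 (0.21, adjusted p = 0.0489) and CYP707A1 (0.28, adjusted p = 0.0196) passed too. In this contrast 41.4% of all genes were called. Many of the 28 named genes were chosen for a large ratio on a day, which favours a difference between days. The calls of TPR3 were lost without day 3 array 1 (adjusted p = 0.0639) or day 6 array 2 or 3 (adjusted p = 0.0723 and 0.0560), and those of CYP707A1 without day 3 array 3 (adjusted p = 0.0512) or day 6 array 2, 3 or 4 (adjusted p = 0.0598 to 0.0612). TMO5 was lost without any 1 of day 3 arrays 2 to 4 or day 6 arrays 2 to 4 (adjusted p = 0.0740 to 0.115). AT4G29030 was lost without any 1 of the same arrays or day 6 array 1 (adjusted p = 0.0507 to 0.132).

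In 74 checks of 4 arrays for 1 array far from the others, 3 stood out, where chance gives about 1 in 20. IAA13 stood at -0.43 on day 6 array 1, AT5G28300 at 0.22 on 1 day 6 array, and the MONOPTEROS signal of Q0990 x Col-0 at 12.44 on day 3 array 2.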

How the results depend on the processing

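The BDL ratio kept its direction and its side of the threshold on both days in all 16 alternatives (0.83 to 1.34 on day 3 and 0.97 to 1.44 on day 6). The MONOPTEROS ratio did so on day 3 (-0.59 to -0.39). On day 6 it stayed below 0 (-0.39 to -0.26, also the range over the arrays left out in turn, for gene and reporter alike), and the call was lost without array 2, 3 or 4. The 3 differences between BDL reporters and the gap between BDL and MONOPTEROS (1.31 to 1.78) were past the threshold in every alternative run. The p of the gap is no further result, as given above.

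The A200239_01 call on day 3 was lost with day 3 fitted alone (0.16, adjusted p = 0.106) and in 6 of the 8 fits without 1 array (0.15 to 0.17). The change of the BDL ratio between days passed only with the term for arrays 1 and 3 against 2 and 4 (0.16, adjusted p = 0.0265). For the changes from day 3 to day 6, the fits without 1 array gave 0.54 to 0.84 for BDL and -1.57 to -0.97 for MONOPTEROS in Q0990 x Col-0, and 0.66 to 1.03 and -1.46 to -0.75 in Q0990 x bdl. BDL in Q0990 x Col-0 passed without an offset (0.79, adjusted p = 0.0424) and with the brightest reporter (0.92, adjusted p = 0.0165). MONOPTEROS in Q0990 x bdl passed with quantile scaling (-1.12, adjusted p = 0.0450) and with median scaling (-1.27, adjusted p = 0.0431). The causes were not tested.

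With the replicate number as a block in place of the dye term, the changes between days of BDL in Q0990 x Col-0 (0.71, adjusted p = 0.0125) and of MONOPTEROS in Q0990 x bdl (-1.12, adjusted p = 0.00377) passed, and the calls of genes between days rose from 5009 to 7039 and from 5984 to 7829. The replicate block changed no call of a member in the difference between days of the cross effect. It ended that call for TPR3, TMO5, AT4G29030 and CYP707A1 (adjusted p = 0.0532 to 0.109). Same-numbered arrays share a number only.

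Genes called on day 3 numbered 5168 (5598 reporters) when all 16 signals had to exceed the blank spots, where fewer were tested, and 5243 (5616 reporters) with day 3 alone, against 8035 (8741 reporters). On day 6 they were 4533 to 7100 (4981 to 7881 reporters) over the arrays left out in turn, lowest without array 3 and next without array 1 (4560 genes, 5024 reporters), against 6964 (7671 reporters). With the stricter filter 1 endosperm marker rose on each day and 3 MONOPTEROS targets fell on day 6, fewer of each list being tested. For 28 named genes, 1202 of 1326 values under an alternative kept direction and call, 65 lost the call, 44 gained one and 15 changed sign. Of those 15, a called value turned only for SYD on day 6, with its brightest reporter (-0.034, adjusted p = 0.652), and the other 14 passed the threshold in neither fit. SYD also turned in the difference between days with that reporter (-0.133), and DGS1 on day 6 without an offset (0.0043) and without loess (0.0059). The rest turned when 1 array was left out, which gave -0.042 to 0.024 for DGS1 and -0.140 to 0.019 for ARF19 on day 6. On day 3 it gave -0.165 to 0.033 for HDA19 and -0.072 to 0.051 for IAA13. For the difference between days it gave -0.0050 to 0.032 for SYD, -0.011 to 0.275 for TMO7 and -0.135 to 0.017 for AT5G21940. Among the members, the uncalled difference between days of At30000405 turned in the same way (-0.140 to 0.064). Low signal limits A200239_01, which stood below the blank spots in 4 of 16 signals.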
